A study of Mus musculus with 4 samples.

Results

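Heat shock proteins and their J-domain partners were read in whole muscle of wild type mice. The genes were chosen by name. They were all genes with a probe set of a single gene whose symbol starts with Hspa, Hspb, Hspd, Hspe, Hsph, Hsp90 or Dnaj, leaving out Hspa5 and Dnajb9. This gave 59 genes of the 12393 measured, 22 with an Hsp name and 37 with a Dnaj name. The samples were 4 pieces of bulk normal muscle from wild type mice of mixed 129S4/SvJae and C57BL/6 background, with no treatment named, and they form a single group. The labels give no age, sex, muscle or time of collection. The samples are titled nm7, nm8, skm4 and skm5, and what the prefixes nm and skm stand for is not given in the labels, so the prefix is treated as a possible batch of unknown kind. Each sample was hybridised to 1 Affymetrix array after linear amplification of total RNA. The RNA came from a fibrous tissue column kit or from TRIzol followed by columns, and the labels do not tie a route to a sample. The series also covers sarcomas, not analysed here.

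Chaperones bind unfolded stretches of other proteins and let them fold, be carried or be degraded. HSP70 proteins do so in cycles of ATP hydrolysis that J-domain proteins start and nucleotide exchange factors such as the HSP110 proteins end, while HSP90 proteins act later on near-native clients. Small heat shock proteins hold unfolded proteins without ATP, and in muscle several of them sit at the Z-disc and on filamin. Heat shock factor 1 (Hsf1) drives the inducible members through heat shock elements, which are GAA triplets in alternating orientation.

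Promoter sequences of 4 genes are shown first, because Hspa1a and Hspa1b have near-identical ones and Hspd1 and Hspe1 share one. Sequences are RefSeq's for GRCm38.p6, read 5′ to 3′ before the start site, and 48 of the 59 genes had at least 1. Capitals mark pairs of heat shock units, GAANNTTC or TTCNNGAA, each of which reads the same on both strands. Hspa1a and Hspa1b, the inducible HSP70 genes, are shown because their values went together in every sample, and their 250 bases differed at 3 positions. For Hspe1 the stretch runs back to a start site of Hspd1 on the other strand, so that both chaperonin genes read away from it. Dnajb6 is the other member with 3 alternating units in a row.
Hspa1a, chr17:34972157-34972406, strand -: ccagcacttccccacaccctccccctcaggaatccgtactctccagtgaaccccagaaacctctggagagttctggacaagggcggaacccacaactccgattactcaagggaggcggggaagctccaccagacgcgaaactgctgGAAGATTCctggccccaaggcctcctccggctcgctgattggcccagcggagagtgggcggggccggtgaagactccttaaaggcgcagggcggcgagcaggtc
Hspa1b, chr17:34959239-34959488, strand -: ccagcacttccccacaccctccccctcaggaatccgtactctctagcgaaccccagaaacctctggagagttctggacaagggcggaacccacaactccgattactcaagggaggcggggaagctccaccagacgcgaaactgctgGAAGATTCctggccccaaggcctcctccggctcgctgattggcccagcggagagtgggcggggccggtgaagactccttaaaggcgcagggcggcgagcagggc
Hspe1, chr1:55087933-55088147, strand +: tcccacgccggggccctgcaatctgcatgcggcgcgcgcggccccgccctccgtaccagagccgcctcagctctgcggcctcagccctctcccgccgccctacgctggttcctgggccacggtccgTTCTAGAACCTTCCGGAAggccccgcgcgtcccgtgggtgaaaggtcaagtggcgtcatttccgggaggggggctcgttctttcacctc
Dnajb6, chr5:29735648-29735897, strand +: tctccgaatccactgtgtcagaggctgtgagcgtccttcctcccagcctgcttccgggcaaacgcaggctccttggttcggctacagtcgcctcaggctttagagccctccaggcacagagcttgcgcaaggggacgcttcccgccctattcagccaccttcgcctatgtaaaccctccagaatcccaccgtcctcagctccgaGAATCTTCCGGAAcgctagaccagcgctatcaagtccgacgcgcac

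A pair of units stood in the 250 bases before at least 1 start site of 13 of the 48 genes (27.1%), against 12.8% of 9887 measured genes with a promoter in the table. A run of 3 units, in either orientation and overlapping the pairs it is made of, stood before 3 of the 48 (6.25%), Hspd1, Hspe1 and Dnajb6, against 0.465% of the measured genes. Hspd1 and Hspe1 were counted on the same shared stretch, and another start site of Hspd1 had no run. Likewise the near-identical promoters of Hspa1a and Hspa1b both count among the 13. These matches describe letters in a window and were not tested as binding sites. The median skm minus nm difference, described below, was -0.09 in the 13 genes with a pair and -0.08 in the 35 without. Genes with no promoter sequence, among them Hsp90aa1, Hspa8 and Dnajc11, are in neither group. Only exact pairs within the window were counted, and the inducible Dnajb1 fell among those without. Whether heat shock elements go with the differences cannot be read from these medians and was not tested.

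Values are log2 expression values made by robust multi-array averaging (RMA), so a difference of 1 is 2-fold, and sample values are listed in the order nm7, nm8, skm4, skm5 unless a sample is named. Levels of different genes are not compared, since each probe set has its own brightness. The spread of the chaperone genes between the samples was near that of other genes. Their median SD over the 4 samples was 0.17, against 0.19 over all genes, and 5 of 59 (8.47%) had a range over 1, against 5.98% of all genes. Those 5 were Hspa1a, Hspa1b, Hsp90aa1, Hspb7 and Dnajc5b. The narrowest range was 0.03, for Hspd1. A single sample stood apart from the other 3 by Dixon's ratio for 3 of the 59 genes (5.08%), against 4.21% of all genes. Dnajb3, Dnajb7 and Dnajb13, with mean levels of 4.61, 4.58 and 5.19, lay in the lowest 25% of gene means, where differences are compressed.

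**Figure D1:**
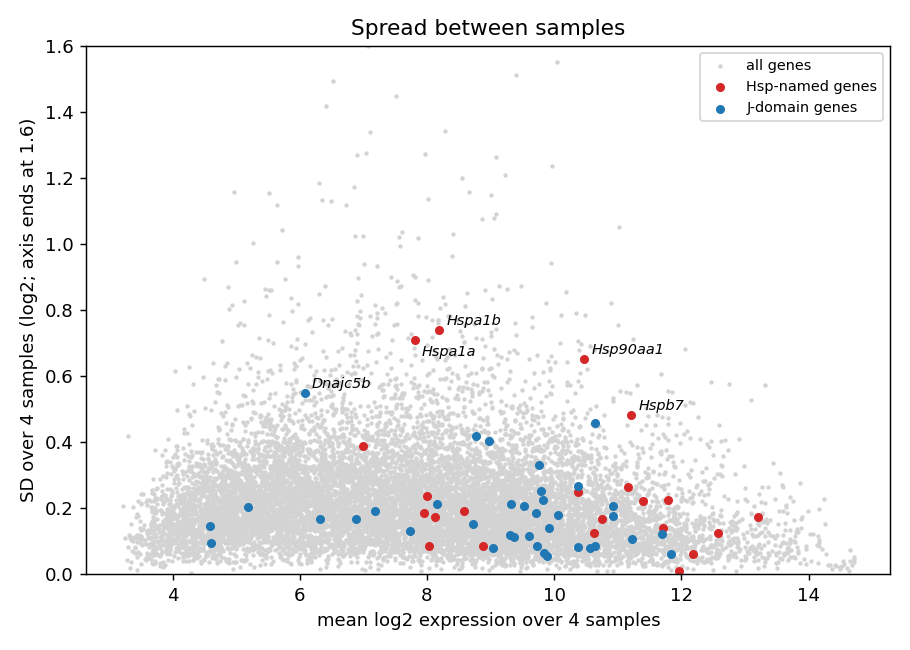
SD over the 4 samples (log2) against mean log2 expression, for all genes in grey, the 22 Hsp-named genes in red and the 37 J-domain genes in blue; the axis ends at 1.6, above which lie 8 grey genes. The 5 named points are the chaperone genes with a range over 1, and most others sit among the grey points.

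The sample with the highest value was nm7 for 22 of the 59 genes (37.3%), against 22.9% of all genes. Among the Hsp-named genes it was nm7 for 11 of 22. The inducible HSP70 genes had the widest ranges of the 59. Hspa1a read 8.82, 7.60, 7.63 and 7.17. Hspa1b read 9.29, 7.90, 7.92 and 7.68. In both genes nm7 stood above the other samples, nm8 lay beside skm4, and the prefixes overlapped. The other probe sets of Hspa1b, at 8.21 and 8.38 in nm7 and 6.78 to 7.32 elsewhere, had the same pattern. The genes have near-identical sequences, so their probe sets may read both and do not count as separate evidence. From lowest to highest sample the levels differed 3.14-fold for Hspa1a and 3.06-fold for Hspa1b. They were the only chaperone genes that read over 1 higher in nm7 than in nm8, and 0.339% of all genes did. That difference is between single samples and has no test. Without nm7 the range was 0.46 for Hspa1a and 0.24 for Hspa1b, so the spread of both rests on that sample.

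**Figure D2:**
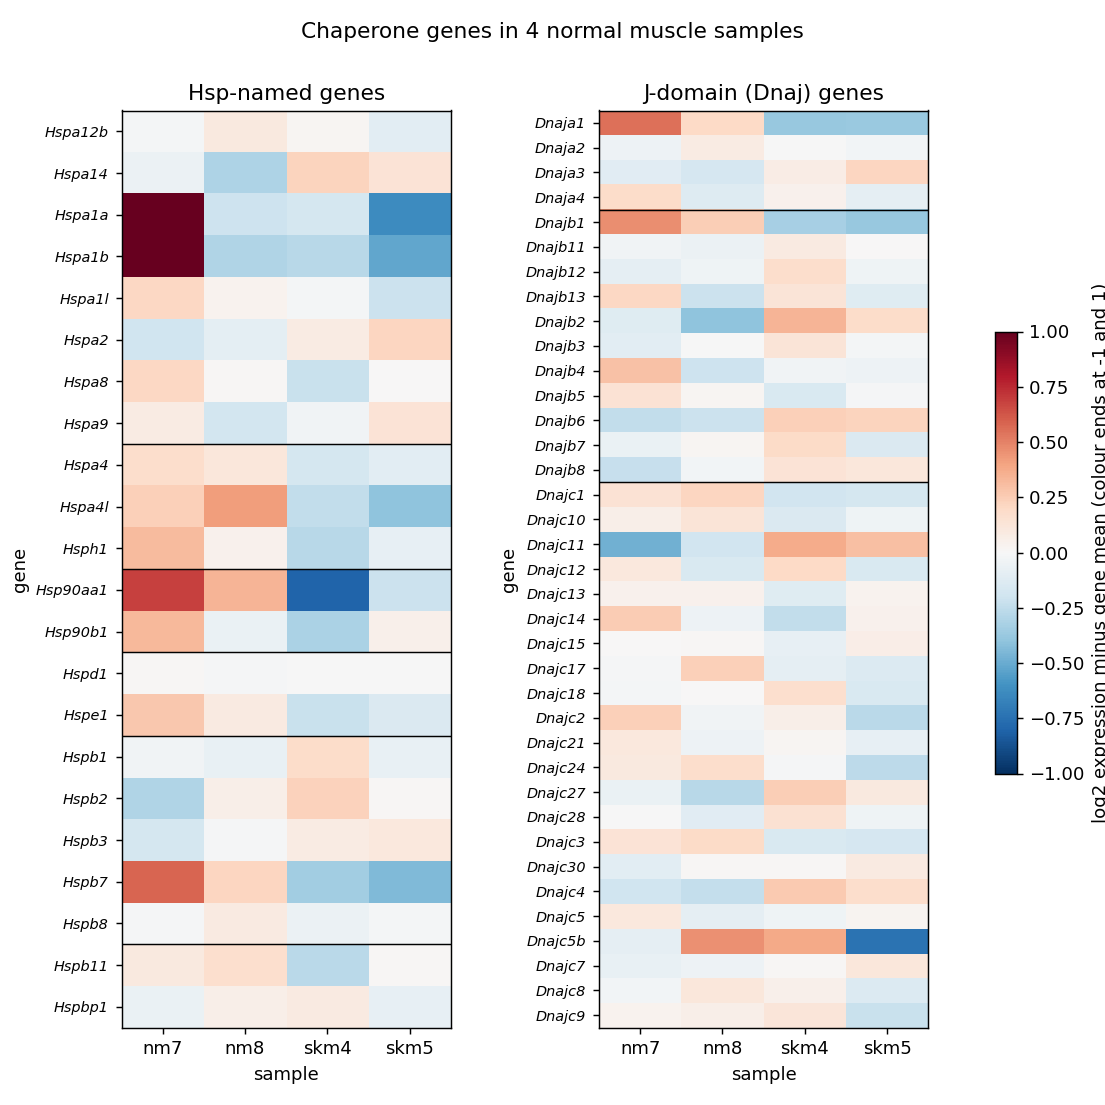
Log2 expression minus the gene's mean, for the 59 chaperone genes in rows and the 4 samples in columns; red is above the mean, blue below, colours end at -1 and 1, and black lines part the families (HSP70, HSP110, HSP90, chaperonins, small heat shock proteins, other Hspb-named genes, then J classes A, B and C). Hspa1a and Hspa1b are dark red in nm7 alone, and Hsp90aa1 is darkest blue in skm4.

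Between the prefixes, none of the 59 genes passed the test. By limma with Benjamini-Hochberg adjustment over all 12393 genes, 0 chaperone genes had an adjusted p under 0.05, against 0.0323% of all genes. The lowest adjusted p among them was 0.069, for Dnajb1. At an unadjusted p under 0.05 there were 13 of 59, 5 higher and 8 lower in the skm samples, against 23.5% of all genes. The prefixes did not overlap for 33 of the 59 genes (55.9%), against 54.4% of all genes. Of these, 14 were higher in skm, where 25.8% of all genes were, and 19 lower, where 28.6% were. With the dimmer genes (mean under the median of gene means) left out of the fit, 8 of 49 chaperone genes passed, as did 16.6% of those genes, and with an intensity trend in the variance the same 8 passed, against 8.96% of all genes. On the probe set used, Dnaja1, Dnajb1, Hsp90aa1 and Hspb7 were lower in skm and Dnajb2, Dnajb6, Dnajc4 and Dnajc11 higher, but other probe sets of Hspb7 and Dnajb6 had the opposite sign. The median skm minus nm difference was -0.06, against -0.00 over all genes. As a group the chaperones were thus near the background on these counts, and what follows describes single genes. Whether each sample is an animal of its own is not in the labels, so the spread behind these p-values may be technical. In bulk tissue, fewer cells of a type and less RNA per cell cannot be told apart.

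**Figure D3:**
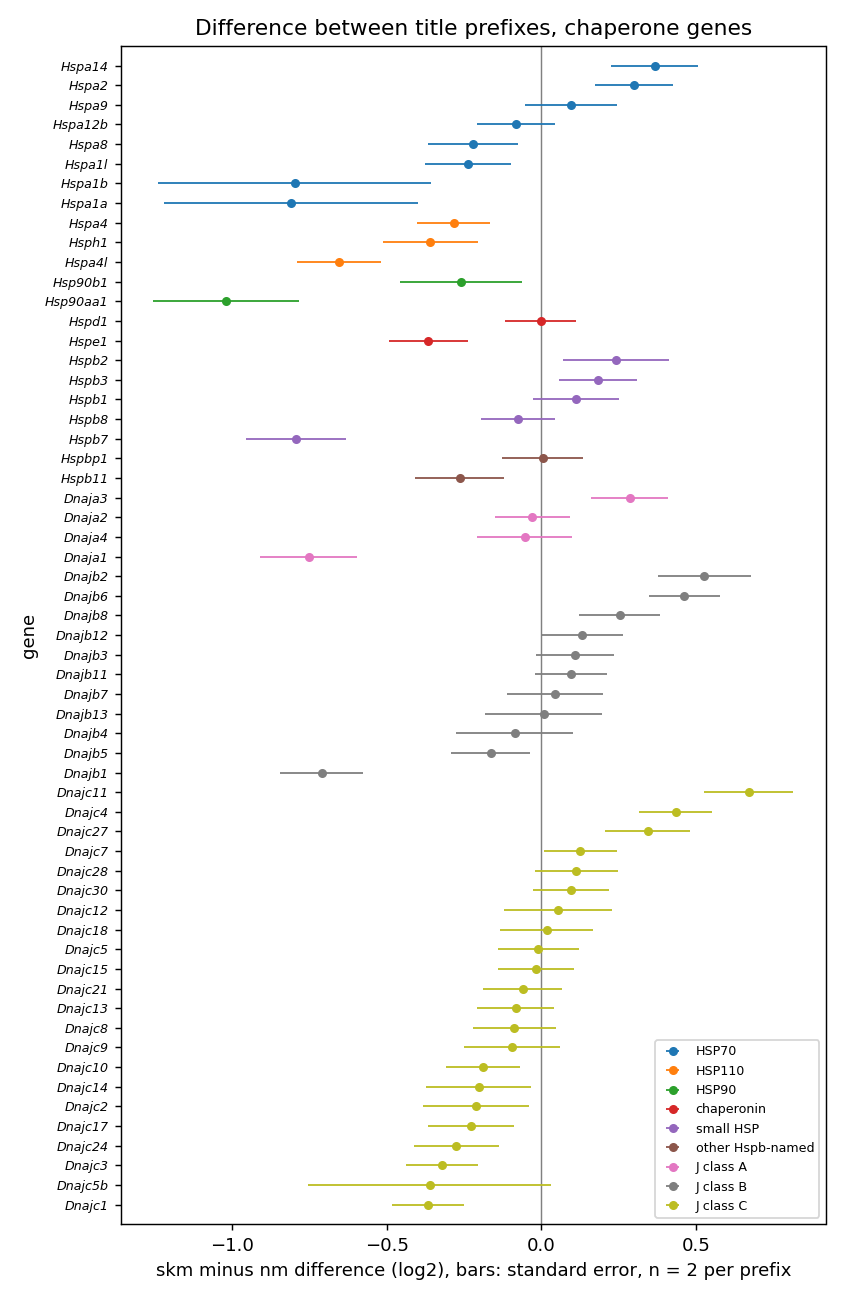
The skm minus nm difference in log2 expression for each chaperone gene, with its standard error from the limma fit (n = 2 per prefix), coloured by family. Hsp90aa1 lies lowest at -1.02 and Dnajc11 highest at 0.67, and no gene passed the test.

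The 2 genes with an Hsp90 symbol among the 59 read lower on average in skm. Hsp90ab1 was not among the 59, so the HSP90 family was read only in part. Hsp90aa1, the inducible cytosolic HSP90, had the largest difference of all 59 genes, at 2.03-fold. It read 11.15, 10.81, 9.66 and 10.25. Both skm samples lay below both nm samples, with skm4 the lowest. The difference was -1.02 ± 0.24 (SE, n = 2 per prefix) with an adjusted p = 0.0905 by limma. Its other probe sets gave differences of -1.04 and -0.997. Without skm4 the difference was -0.72 and without skm5 -1.31. Hsp90b1, the HSP90 of the endoplasmic reticulum, read 11.47, 11.09, 10.84 and 11.21, and its prefixes overlapped (-0.26 ± 0.20). Its other probe set gave -0.52.

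HSP70 members differed in both directions, none past the test. Hspa8, the constitutive cytosolic HSP70, read 13.41, 13.22, 12.98 and 13.21. Its lower nm and higher skm sample lay close together, and the difference was -0.22 ± 0.14. Its other probe sets gave -0.15, -0.11 and, for the dimmest, 0.08. Hspa9, the mitochondrial HSP70, ranged over 0.31 with overlap (0.10 ± 0.15). Hspa14, a ribosome-associated member, read 7.95 and 7.70 in nm and 8.23 and 8.15 in skm (0.37 ± 0.14), but its dimmer probe set gave -0.11 and the mean of both 0.13. Hspa2, best known from male germ cells, was higher in both skm samples (0.30 ± 0.12), and Hspa1l, another germ cell member, lower in both (-0.24 ± 0.14). Hspa12b, a distant endothelial member, overlapped at -0.08 ± 0.13. For Hspa1a and Hspa1b the differences were -0.81 ± 0.41 and -0.80 ± 0.44, and without nm7 they were -0.20 and -0.10.

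On the probe sets used, the 3 exchange factors of the HSP110 family read lower in both skm samples than in both nm samples, as did 28.6% of all genes, but other probe sets of Hsph1 and Hspa4 had the opposite sign. Hspa4l read 7.24, 7.41, 6.75 and 6.59, a difference of -0.65 ± 0.13 (adjusted p = 0.076, limma). Its other probe set gave -0.50. Hsph1, the inducible member, read 10.69, 10.42, 10.10 and 10.29 (-0.36 ± 0.15), but its dimmer probe set gave 0.34, so its direction is uncertain. Hspa4 differed by -0.28 ± 0.12, and its other probe sets by 0.09 and -0.10. Hspbp1, which releases nucleotide from HSP70 and is no small heat shock protein despite its symbol, differed by 0.00 ± 0.13.

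The mitochondrial chaperonins, which work as a barrel and a lid, were read from genes that share the stretch printed above. Hspd1, the barrel subunit, read 11.97, 11.95, 11.96 and 11.96, the flattest of the 59 genes. Hspe1, the lid subunit, read 12.06, 11.88, 11.57 and 11.65 in the same order. Both skm samples of Hspe1 lay below both nm samples, by -0.36 ± 0.13 (adjusted p = 0.17, limma), and its other probe set gave -0.24. Hspd1 differed by -0.00 ± 0.11. The difference between the genes' differences was not tested. The shared stretch held 2 overlapping runs of 3 units.

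On the probe sets used, Hspb1, Hspb3 and Hspb8 had an SD under the all-gene median of 0.19. Hspb2, at 0.22, and Hspb7, at 0.48, lay above it. Hspb1, an actin-binding chaperone of the Z-disc, read 12.53, 12.49, 12.75 and 12.49 with skm4 above the rest (0.11 ± 0.14, and 0.25 on its other probe set). Hspb8, which works with Bag3 in the clearance of damaged filamin, ranged over 0.15 (-0.08 ± 0.12), while its other probe sets gave 0.39 and -0.17. Hspb2 and Hspb3, which form a complex in muscle, differed by 0.24 ± 0.17 and 0.18 ± 0.13, with overlap for Hspb2 alone. Hspb11, now known as a part of intraflagellar transport, differed by -0.26 ± 0.14.

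Hspb7, a small heat shock protein of heart and skeletal muscle that binds filamin C, gave opposite answers on its probe sets. The brightest read 11.79, 11.43, 10.87 and 10.77, a difference of -0.79 ± 0.16 (adjusted p = 0.075, limma). A second read 10.46, 9.84, 11.35 and 10.88 in the same order, and the dimmest 9.73, 8.93, 10.79 and 10.67. These differed by 0.96 and 1.40, with both skm samples above both nm samples. The direction of Hspb7 is therefore unknown, and with the mean of its probe sets it was 0.52. Which transcript ends the probe sets read is not given in the files.

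**Figure D4:**
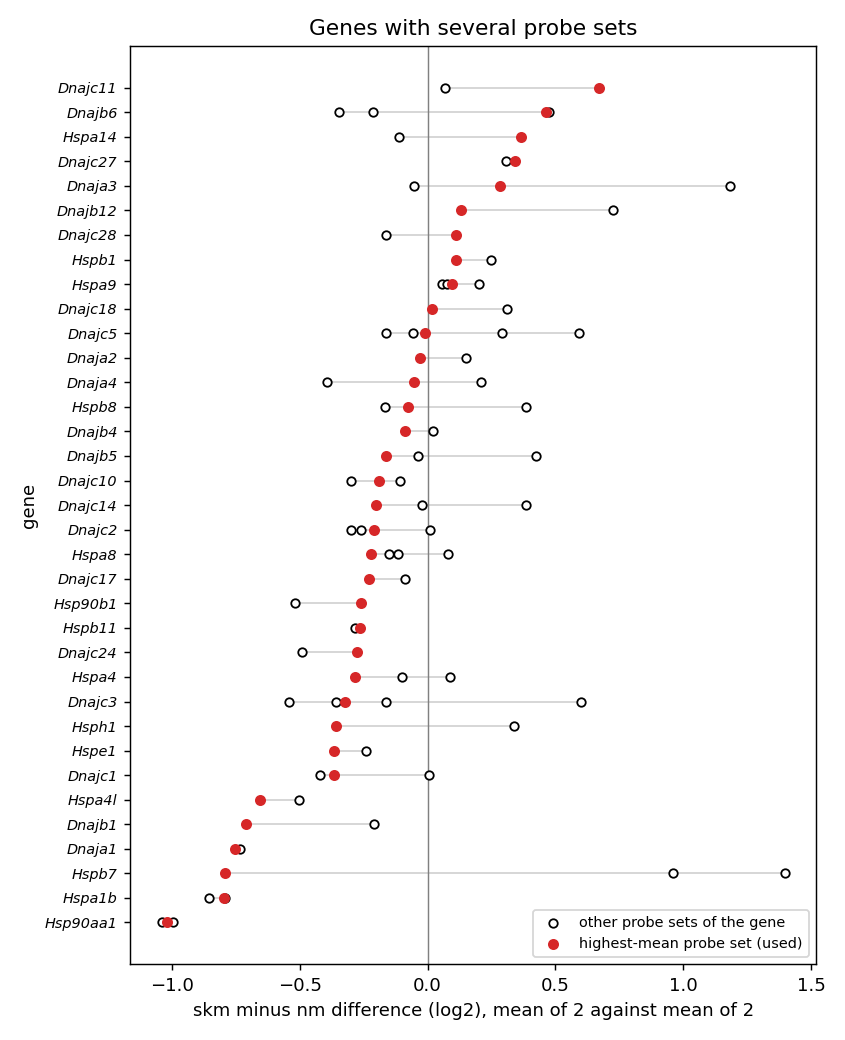
The skm minus nm difference (log2) of every probe set of the 35 chaperone genes that have several, with the probe set used in red and the others as open circles. The 3 probe sets of Hsp90aa1 lie together near -1, while those of Hspb7 run from -0.79 to 1.40.

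Across the 35 genes with several probe sets, all probe sets had the same sign for 17. For Hspb7 and Dnajc3 the probe sets differed by more than 0.5 each way. A direction drawn from a single probe set is thus weak for many chaperones.

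Class A J-domain proteins, the co-chaperones closest to bacterial DnaJ, had 1 member with a wide difference. Dnaja1, which delivers clients to HSP70 in the cytosol and is inducible by heat, read 11.18, 10.83, 10.25 and 10.26. The prefixes did not overlap, and the difference was -0.75 ± 0.16, or 1.68-fold (adjusted p = 0.076, limma). Its second probe set gave -0.73. Dnaja2, another cytosolic member, ranged over 0.13 and Dnaja4, abundant in muscle and heart, over 0.31, both with overlap. Other probe sets gave 0.15 for Dnaja2 and 0.21 and -0.39 for Dnaja4. Dnaja3, the mitochondrial member, was higher in both skm samples at 0.28 ± 0.12, and its other probe sets gave 1.18 and -0.05.

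Class B proteins went both ways. Dnajb1, the inducible partner of HSP70 in disaggregation, read 9.23, 9.01, 8.43 and 8.39. The prefixes did not overlap, and the difference was -0.71 ± 0.13, or 1.64-fold (adjusted p = 0.069, limma). Its dimmer probe set gave -0.21, and the mean of both was -0.46. Dnajb2, which hands ubiquitylated clients to the proteasome, read 9.64, 9.36, 10.10 and 9.95, and so was higher in skm (0.53 ± 0.15, adjusted p = 0.12, limma). Dnajb6, a Z-disc co-chaperone whose mutation causes a limb-girdle muscular dystrophy, read 10.12, 10.15, 10.61 and 10.59 in that order. Its difference was 0.46 ± 0.11. A probe set of like brightness gave -0.22, dimmer ones gave 0.47 and -0.35, and the mean of all 4 was 0.09, so its direction is uncertain. Dnajb4, mutated in a myopathy, and Dnajb5, a redox-sensitive partner of a class II histone deacetylase, differed by -0.09 ± 0.19 and -0.16 ± 0.13. The other probe set of Dnajb4 gave 0.02, and those of Dnajb5 gave -0.04 and, for the dimmest, 0.42.

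Class C proteins share little but the J domain, and their differences were mostly small. The 22 of them had a median difference of -0.07, from -0.37 to 0.67. Dnajc11, a protein of the mitochondrial cristae machinery, read 8.49, 8.78, 9.34 and 9.27. Both skm samples lay above both nm samples, by 0.67 ± 0.14 or 1.59-fold (adjusted p = 0.080, limma), while its dimmer probe set gave 0.07 and the mean of both 0.37. Dnajc4 read 9.60, 9.56, 10.06 and 9.97 in the same order (0.43 ± 0.12, adjusted p = 0.11, limma). Dnajc27, a small GTPase with a J domain, was higher in skm by 0.34 ± 0.14, with 0.31 on its other probe set. On the low side were proteins of the endoplasmic reticulum, Dnajc1 at -0.37 ± 0.12 and Dnajc3, which also restrains eIF2 kinases, at -0.32 ± 0.12, with Dnajc24, an enzyme partner in diphthamide synthesis, at -0.27 ± 0.14 and -0.49 on its other probe set. Other probe sets of Dnajc1 gave -0.42 and, for a very dim one, 0.01. The 5 probe sets of Dnajc3 ran from -0.54 to 0.60. Dnajc15, a regulator of mitochondrial import, Dnajc7, a partner of both HSP70 and HSP90, and Dnajc8, linked to splicing, ranged over 0.15, 0.19 and 0.25. Dnajc5b, a germ cell form of the cysteine string protein, read 5.98, 6.53, 6.45 and 5.34, low in skm5 and without order by prefix.

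A choice of members was grouped by place, and in the cytosol by heat induction as well. The 7 chosen as cytosolic and heat-inducible (Hspa1a, Hspa1b, Hsp90aa1, Hsph1, Dnaja1, Dnajb1 and Hspb1) had a median skm minus nm difference of -0.75, from -1.02 to 0.11. The 5 chosen from the endoplasmic reticulum (Hsp90b1, Dnajb11, Dnajc1, Dnajc3 and Dnajc10) had a median of -0.26, from -0.37 to 0.10. Among them, the probe sets of Dnajc3 ran from -0.54 to 0.60. The 7 chosen from the mitochondrion (Hspa9, Hspd1, Hspe1, Dnaja3, Dnajc11, Dnajc15 and Dnajc30) had a median of 0.10, from -0.36 to 0.67, and so went both ways. Members in none of these groups went both ways, such as Hspa4l at -0.65, Hspa8 at -0.22 and Dnajc14 at -0.20. Dnaja2 lay at -0.03, Dnajb12 at 0.13, Dnajb6 at 0.46 and Dnajb2 at 0.53. The medians thus depend on the choice of genes. The grouping was made after the values were seen, and the medians are a description with no test. In the cytosolic heat-inducible group nm7 was the highest sample for 6 of the 7 genes, as it was for 22.9% of all genes. Without nm7, Hsp90aa1, Dnajb1 and Dnaja1 differed by -0.85, -0.60 and -0.58. Hsph1, Hspa1a, Hspa1b and Hspb1 then differed by -0.22, -0.20, -0.10 and 0.13. Hspa1a and Hspa1b do not count as separate evidence, and another probe set of Hsph1 gave 0.34.

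Genes that act with the chaperones were read from lists, and 0 of them passed the test. Of the heat shock factor list 3 of 5 genes had a probe set of a single gene, and Hsf1 was not among them. Hsf2, a second heat shock factor, differed by -0.51 ± 0.16, Hsbp1, which binds heat shock factor, by 0.33 ± 0.12 (0.03 on its other probe set), and Hsf4 by 0.07 ± 0.13. Hsf4, with a mean level of 5.63, lay in the lowest 25% of gene means, where differences are compressed. Of the co-chaperones of HSP70 and HSP90, 26 of 30 were measured, with 11 higher and 6 lower in skm without overlap, where 25.8% and 28.6% of all genes were, and a median difference of 0.05. Cdc37, which brings kinases to HSP90, read 10.63, 10.81, 11.61 and 11.71 (0.94 ± 0.13, adjusted p = 0.0506, limma). Its other probe set gave 0.04, and the mean of both 0.49 (adjusted p = 0.14, limma). Fkbp5, a glucocorticoid-induced HSP90 partner, differed by 0.79 ± 0.33, and Sgta, which receives tail-anchored proteins, by 0.54 ± 0.13. Bag3, the Hsf1 target that joins Hspb8 to HSP70 and was singled out after its values were seen, differed by -0.02 ± 0.14.

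The 9 genes of the CCT chaperonin, which folds actin and tubulin, had a median difference of -0.07, and Cct4, Cct2 and Cct3 differed by -0.21 ± 0.12, 0.17 ± 0.13 and -0.16 ± 0.12. The signs of Cct4 and Cct3 are not secure, since with the mean of their probe sets they differed by 0.03 and 0.15. The 5 measured prefoldin genes, which pass clients to CCT, were higher on average in skm, with a median of 0.30, and Pfdn1, Pfdn2 and Pfdn5 at 0.45 ± 0.18, 0.39 ± 0.12 and 0.30 ± 0.13. With the mean of its 5 probe sets Pfdn5 differed by 0.09. Cryab, the small heat shock protein alpha B-crystallin that the naming rule leaves out, differed by 0.18 ± 0.16 (0.33 with the mean of its probe sets) and Cryaa, the gene of alpha A-crystallin, by -0.27 ± 0.15. The mean level of Cryaa, 5.11, lay in the lowest 25% of gene means, where differences are compressed. In the list of chaperone-assisted autophagy and myosin folding, 4 of 6 measured genes were higher and 1 lower in skm without overlap. Of all genes 25.8% and 28.6% were. The lower one, Flnc, was singled out after its values were seen and differed by -0.24 ± 0.14. Bag3 overlapped. Synpo2, a Z-disc adaptor of that pathway, differed by 1.11 ± 0.13 (adjusted p = 0.0506, limma), Smyd1, a methyltransferase that works with HSP90 on myosin, by 1.42 ± 0.12 (adjusted p = 0.0506, limma), and Sqstm1, the autophagy receptor p62, by 0.66 ± 0.12 (adjusted p = 0.069, limma). The 3 probe sets of Smyd1 ran from 0.15 to 1.42, with a mean of 0.80.

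Of the lists of cell markers, that of lymphocytes had the largest median difference between the prefixes, at -1.75. Over all genes, 25.8% were higher and 28.6% lower in skm without overlap, and the counts below stand beside these shares. The muscle markers Ckm, Acta1, Myh4, Mylpf and Tnnt3 read between 14.50 and 14.75, with ranges of at most 0.16, and so marked skeletal muscle in every sample. The sixth of that list, the muscle regulator Myod1, read 8.56, 8.19, 9.62 and 9.62 (1.24 ± 0.16, adjusted p = 0.0506, limma). Lymphocyte markers were lower in both skm samples for 9 of 9 genes, with mean levels of 8.35 and 8.56 in nm7 and nm8 and 6.20 and 7.25 in skm4 and skm5. Adipocyte markers had mean levels of 10.92, 11.11, 9.91 and 10.46 in the same order, with 3 of 5 lower in skm without overlap, and macrophage markers 9.11, 9.05, 8.62 and 9.08, with 2 of 6. Endothelial markers had 9.22, 9.24, 9.55 and 9.62, with 3 of 6 higher and 2 lower in skm without overlap. Keratinocyte markers were highest in skm5 for 7 of 8 genes (5.88, 6.32, 6.02 and 7.80), and slow fibre markers in nm7 and skm4 (12.47, 11.97, 12.47 and 11.60). RMA gives no zeros, so absence of a cell type cannot be read from them. The part of these cells in the chaperone values was not tested.

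Clock, cold-induced and immediate early genes were read beside the chaperones. All 11 clock genes were without overlap, 7 higher and 4 lower in skm, against 54.4% of all genes either way, and Arntl at -1.79 ± 0.12 and Per3 at 1.67 ± 0.12 passed the test (adjusted p = 0.047 each, limma). Both calls were lost with any 1 sample left out (adjusted p = 0.052 to 0.18, limma). With the mean of its 3 probe sets, which ran from -0.21 to 1.67, Per3 differed by 0.45 and did not pass (adjusted p = 0.13, limma). Per2 read 5.08, 4.03, 7.62 and 7.50, with a difference of 1.84 for the mean of its probe sets, and Dbp and Per1 differed by 2.93 ± 0.27 and 1.88 ± 0.31. Cirbp, an RNA-binding protein induced by cold, read 8.24, 8.20, 8.74 and 8.91 (0.61 ± 0.13, adjusted p = 0.076, limma). Of 14 immediate early genes, 3 were higher and 2 lower in skm without overlap, where 25.8% and 28.6% of all genes were. The other 9 overlapped, and the median difference of the list was 0.15. Egr1, Nr4a1 and Atf3, which had the largest differences of the list, differed by -1.41 ± 0.26, 1.21 ± 0.16 and -0.81 ± 0.29. Their part in the chaperone values was not tested, and the prefix and whatever it stands for cannot be told apart.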

How the data were processed

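The deposited table holds log2 expression values per probe set, which the authors made by RMA; the submitters' processing notes name Affymetrix Expression Console 1.1; array settings are not given in the sources used here. RMA compresses differences near the background and the brightest values. Of 22690 probe sets, 64 were controls, 20380 had 1 gene in the platform annotation, 691 several and 1555 none; Dnajc19, read only with its pseudogene, was left out. Symbols were updated through Entrez identifiers (GRCm38.p6, names alone), and the highest-mean probe set stood for each gene. The title prefixes were compared on all 12393 genes with limma 3.58.1 in R 4.3.3 (lmFit, eBayes, 2-sided, 2 residual degrees of freedom plus 3.51 borrowed), Benjamini-Hochberg adjusted at 0.05, and the script was tested on simulated data. The number of arrays limits the precision.

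Members and lists were chosen with earlier results of these data known. Named genes were all Hsp-named members, all Dnaja genes, Dnajb1, Dnajb4, Dnajb5, Dnajb6, Dnajc7, the 5 highest and 5 lowest Dnaj genes by moderated t, the 5 with the highest mean, those with a range over 1, and up to 3 per pathway list by size of difference plus those past the threshold. Alternatives were quantile normalization, centring, a fit without genes under the median level, averaging the probe sets of a gene, dropping probe sets whose IDs mark possible cross-hybridization, an intensity trend and each sample left out. Means ± SE come from the fit.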

Additional observations from a re-analysis of the deposited data

Results flagged for a closer look

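A sample stood apart from the other 3 by Dixon's ratio of gap to range, above its 95% critical value for 4 samples, for 3 of the 59 chaperone genes (5.08%), against 4.21% of all genes; chance alone flags about 1 in 20 groups. Hspa1b was high in nm7, with a ratio of 0.851, and its near-copy Hspa1a had a ratio of 0.72 in the same sample. Hspb1 was high in skm4, with a ratio of 0.836 over a range of 0.26. Dnajc13, an endosomal J-domain protein, was low in skm4, with a ratio of 0.944 over a range of 0.16.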

How the results depend on the processing

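The number of chaperone genes past the threshold was 0 with quantile normalization, centring, the mean of probe sets, without cross-hybridizing probe sets and without any 1 sample. It was 8 of 49 when genes under the median level were dropped, where 16.6% of genes passed, and 8 of 59 with an intensity trend, where 8.96% passed. The 8 were the same genes both times, Dnaja1, Dnajb1, Hsp90aa1 and Hspb7 lower and Dnajb2, Dnajb6, Dnajc4 and Dnajc11 higher in skm on the probe set used. Over all genes, the count of 4 became 186 with quantile normalization, 1026 with the filter, 92 with the mean of probe sets, 142 without cross-hybridizing probe sets, 1110 with the trend, and 0 to 15 with 1 sample left out, the 15 without skm5. The number of chaperone genes with a range over 1 was 3 with the filter, which removes Hspa1a and Dnajc5b, and 2 to 5 with 1 sample left out, 2 without nm7 and 3 without skm5. Hspb7 turned to 0.52 with the mean of probe sets. The median SD and the median difference of the chaperone genes moved by less than the spread between samples under every alternative run; the difference ran from -0.10 to -0.00. With 1 sample left out, the lone sample of a prefix is assumed to vary like the others. No paired analysis was possible because the labels pair no nm sample with an skm sample. The cause of these changes was not tested.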
